A study of Mus musculus with 6 samples.

Results

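The axon guidance ligands and receptors were followed as 51 genes, taken by symbol from the 54446 genes listed in 6 single-cell RNA libraries of mouse glioma cells. They comprised 26 receptors (neuropilins, plexins, Robo receptors, netrin receptors and Eph receptors) and 25 ligands (semaphorins, Slits, netrin-1 and ephrins), and were listed by gene family, with earlier results of these data known. All 51 symbols were found. The 2 libraries of GL261, an established mouse glioma line, came from cells grown with fetal calf serum in differentiation medium. The 4 libraries of GL261-GSCs came from cultures derived from that line, labelled as glioblastoma stem cells and grown in a defined medium for such cells (GSC medium). The labels name no genotype change, drug or host animal for either group, and since the medium changed together with the cell type label, the effects of medium and cell type cannot be told apart. Cells and neurospheres were dissociated with Accutase and exposed to a lysis buffer with a non-ionic detergent, and 5' droplet libraries were made. The labels leave it open whether whole cells or nuclei entered the droplets, and nothing says that the libraries of a group came from separate cultures, so that p-values measure the spread between these libraries only.

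Axon guidance molecules steer growing neurites and migrating cells by attraction or repulsion. Secreted class 3 semaphorins bind neuropilins, which signal through plexins, whereas most membrane semaphorins bind plexins directly. Slits repel through Robo receptors, netrin-1 attracts through Dcc and repels through Unc5 receptors, and Eph receptor tyrosine kinases and ephrins signal at cell contacts in both directions. Many of these molecules also act in vessel growth, and Eph receptors, plexins and neuropilins are widely studied in glioma for their part in invasion.

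Each library held 80899005 to 121309232 UMIs (unique molecular identifiers, each standing for 1 captured RNA molecule), of which 33320530 to 79472306 lay in called cells. There were 4808 and 5002 called cells for GL261 and 4264, 5870, 7275 and 4512 for GL261-GSCs replicates 1 to 4. The median cell held 15478 and 13652 UMIs in the GL261 libraries, against 15375, 11890, 10638 and 6670 in GL261-GSCs. Pairs of libraries shared 32 to 59 called barcodes, where chance gives 26.1 to 57.9. Sox2, Nes and Vim, markers of neural progenitors and glioma cells, were present in all 6 libraries, with Vim and Nes lower in GL261-GSCs (4355 to 5052 and 312 to 563 CPM, UMIs scaled to 1000000 per library, against 14053 and 15215 and 1183 and 1265) and Sox2 higher (81.7 to 141, against 66.8 and 67.5). Of the same marker list, Gfap was at 1.36 CPM or below and Prom1 at 0.0607 CPM or below, and Olig2 lay at 401 to 787 CPM in GL261-GSCs and at 0.918 CPM or below in GL261. Among the markers of other cell types, 3 of 3 for T cells, 5 of 6 for neurons, 6 of 8 for microglia, 5 of 7 for endothelium and 4 of 6 for pericytes and fibroblasts stayed under 1 CPM in every library, with Cldn5 and Rbfox3 at 0. The endothelial marker Flt1 stood at 46.9 and 35.4 CPM in GL261 and at 58.2 to 85.2 CPM in GL261-GSCs.

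Of the 51 genes, 40 had enough UMIs to be tested, and 24 of them differed between GL261-GSCs and GL261. 15 rose in GL261-GSCs and 9 fell. The largest rises were in the secreted semaphorins Sema3d and Sema3a, the membrane semaphorin Sema6a, netrin-1 (Ntn1) and its receptor Dcc, and the Eph receptors Epha3 and Ephb2. The neuropilin Nrp1 and the Eph receptor Epha2, each clearly present in GL261, were close to absent from GL261-GSCs. Ligands and receptors both moved in each direction, with 8 receptors higher and 4 lower among 19 tested, and 7 ligands higher and 5 lower among 21 tested.

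A gene was called at an adjusted p under 0.05 in the edgeR quasi-likelihood test of UMIs added up per library over its called cells, with p adjusted over all 18439 genes tested. By that rule 60% of the tested axon guidance genes were called, where the background over all genes was 29.9% (15.8% higher and 14.1% lower in GL261-GSCs). This background is not matched for gene length. At an average log2 CPM of at least 1, 12.7% of genes up to 20 kb were called higher and 16.3% lower. From 200 to 500 kb these shares were 32.7% and 19.1%. Among genes of at least 10 CPM in a group, 16 of 23 axon guidance genes were called (9 higher, 7 lower), against 32.6% of all genes at that level. The groups did not overlap for 30 of the 40 tested genes, 17 higher and 13 lower in GL261-GSCs, and the background for this was 56.7% (28.7% higher and 28% lower). All 24 called genes were among these, and over all genes none of the 5514 called overlapped either. Of the 40 tested genes, 21 were both called and changed at least 2-fold, as were 21% of all genes tested. The median log2 fold change of the 40 genes was 0.65, against 0.04 over all genes. A sum over cells cannot tell fewer cells with a transcript from less transcript per cell. With only 2 GL261 libraries the calls were fragile on that side: 8 genes were called without GL261 replicate 1 (background 10.3%) and 9 without GL261 replicate 2 (background 9.3%). Leaving out GL261-GSCs replicate 1, 2, 3 or 4 gave 26, 21, 20 and 22 called genes, with backgrounds of 33.8%, 27.3%, 22.7% and 30%.

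Other rules gave other counts with other backgrounds. A test against a 2-fold change called 10 of the 40 genes, 6 higher and 4 lower, against 10.8% of all genes (5.93% higher and 4.85% lower). DESeq2 called 29 and limma-voom 22, against 36.7% and 29.5% of all genes. Without GL261-GSCs replicates 1 and 2 together 35 were called, against 54.9% of all genes. Without replicates 3 and 4 together 24 of 37 tested were called, against 6985 of 17540 genes.

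**Figure D1:**
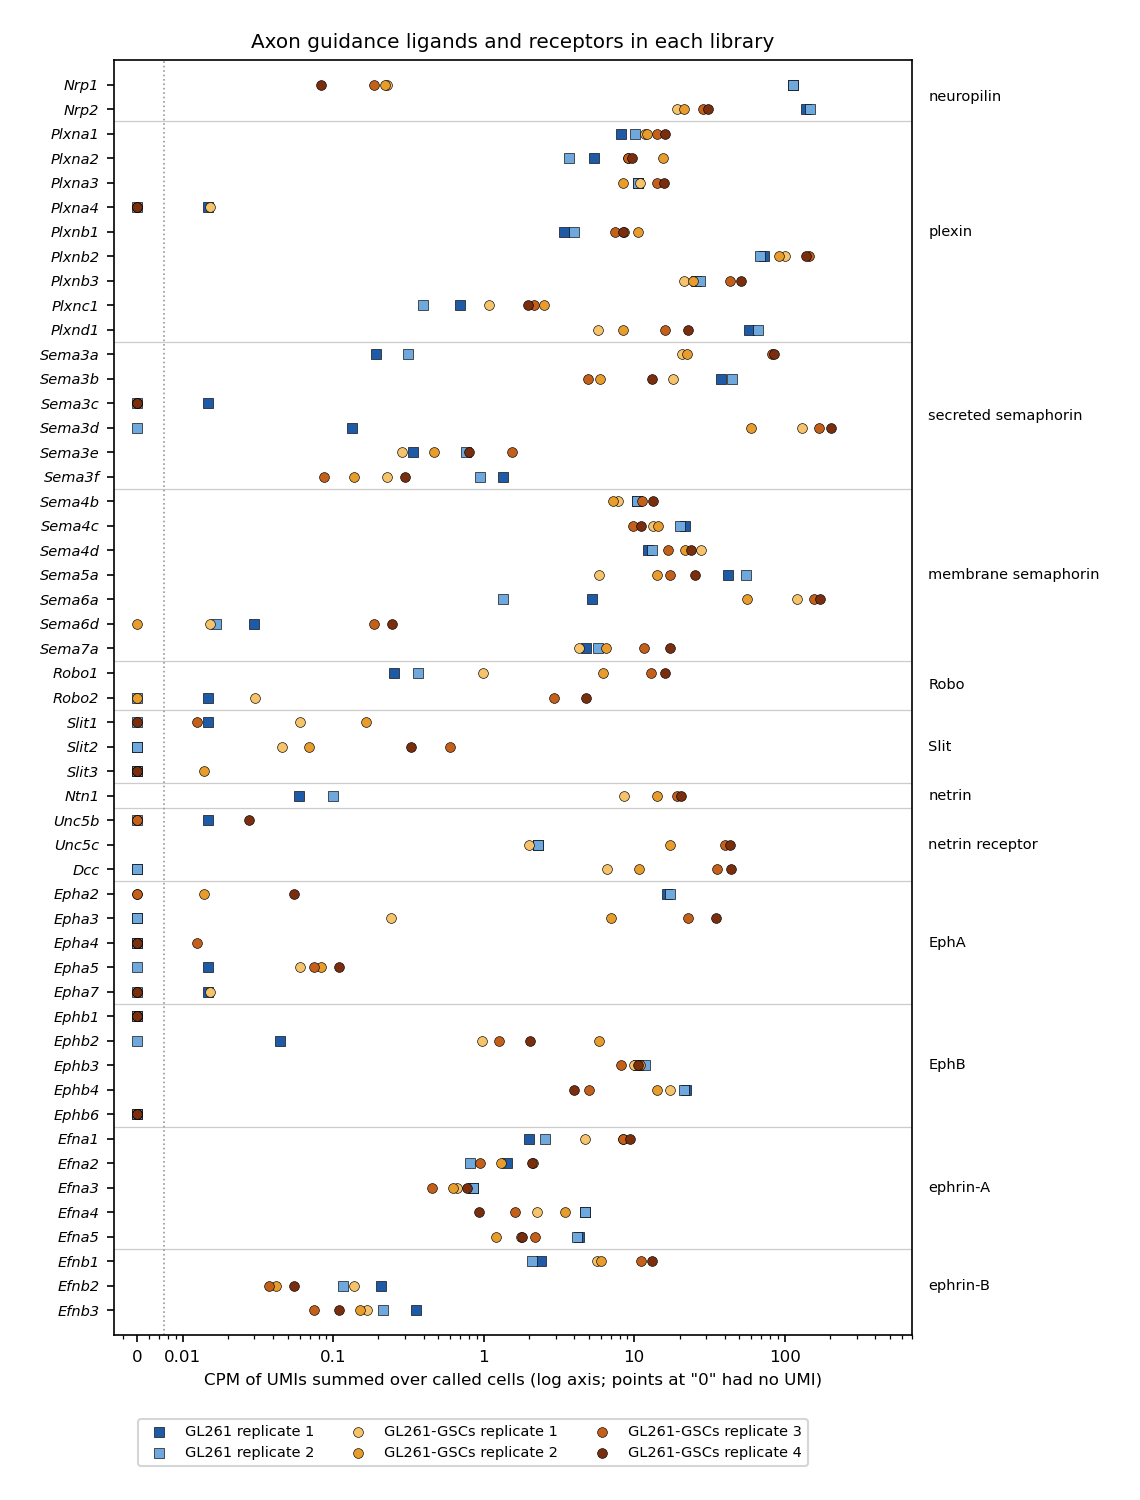
Level of each of the 51 axon guidance genes in each library, as CPM of UMIs summed over called cells on a log axis, grouped by family; squares are the 2 GL261 libraries, circles the 4 GL261-GSCs libraries, and points left of the dotted line had no UMI. Nrp1 and Epha2 lie far to the right in GL261 only, while Sema3d, Sema3a, Ntn1 and Dcc lie far to the right in GL261-GSCs only, as does Epha3 except in replicate 1 (0.243 CPM).

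**Figure D2:**
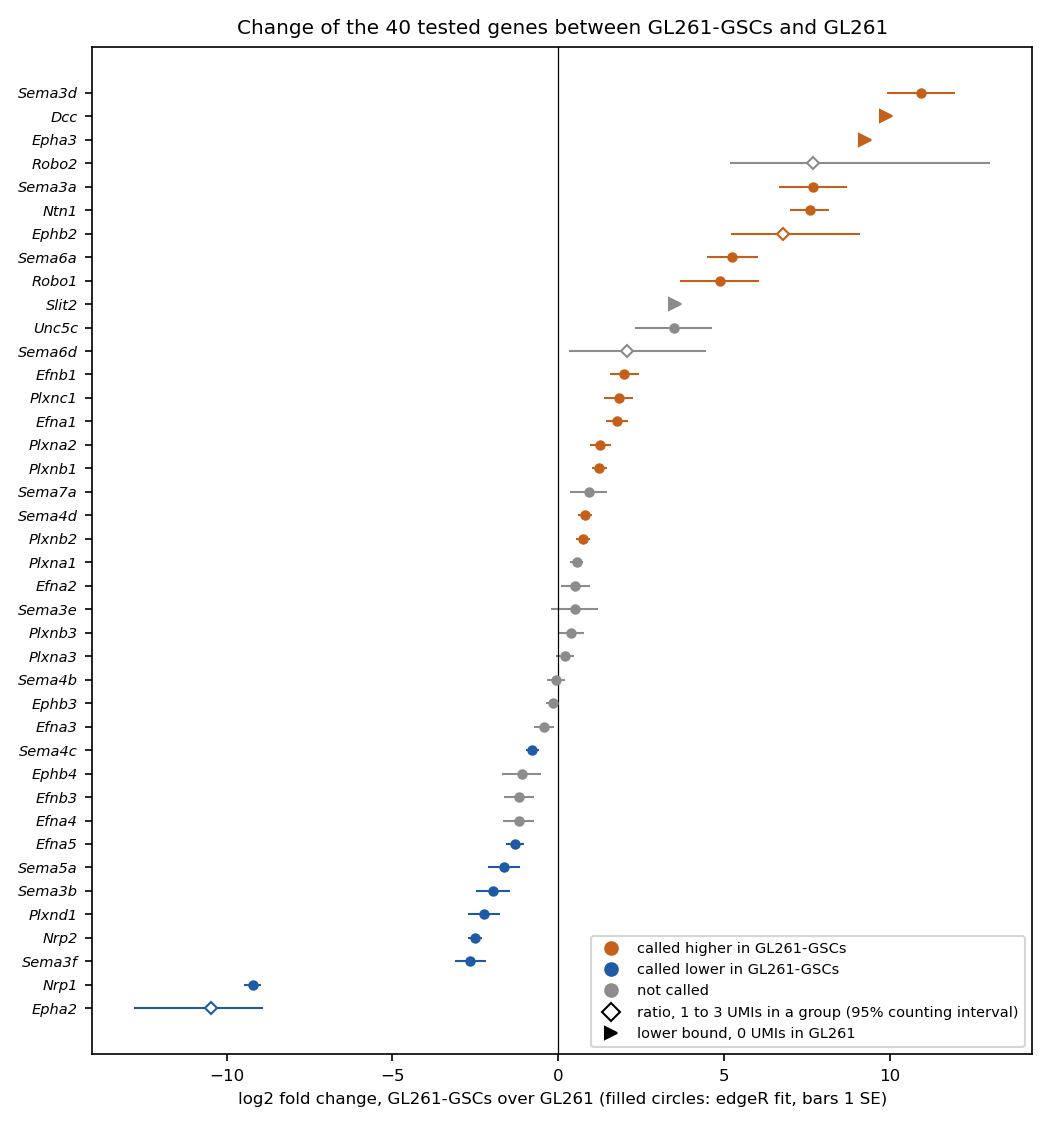
Log2 fold change of GL261-GSCs over GL261 for the 40 tested genes; filled circles are edgeR estimates with bars of 1 SE, open diamonds are ratios of UMIs with 95% counting intervals for genes with 1 to 3 UMIs in a group, and triangles are lower bounds for genes with no UMI in GL261. Called genes are coloured, 15 on the right and 9 on the left, and 16 genes in grey were not called.

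The neuropilins, the ligand-binding coreceptors of class 3 semaphorins, fell. Nrp1 (ENSMUSG00000025810.9, chr8:128358604-128503363, GRCm38), which also binds VEGF, stood at 113 CPM in each GL261 library and at 0.227, 0.221, 0.188 and 0.0824 CPM in GL261-GSCs replicates 1 to 4. All 4 GL261-GSCs libraries were near the floor, with 49 UMIs between them against 14486 in GL261. The log2 fold change was -9.21 (SE 0.26, edgeR adjusted p = 1.84e-05), a 594-fold fall. Nrp2 (ENSMUSG00000025969.15, chr1:62703285-62818695), the preferred partner of Sema3f, stood at 138 and 147 CPM in GL261 and at 19.2, 21.4, 28.7 and 30.8 CPM in GL261-GSCs. It remained readily measured in every GL261-GSCs library although each was far below GL261, and the fall was 5.71-fold (log2 fold change -2.51, SE 0.21, edgeR adjusted p = 0.00037). Both calls held in all 18 alternative settings run. GL261-GSCs kept Nrp2 transcripts with hardly any of Nrp1.

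Plexins, the signal-transducing receptors of semaphorins, moved in both directions: of 9, 8 were tested, 4 rose and 1 fell. Plxnd1 (ENSMUSG00000030123.15, chr6:115954811-115995005), the Sema3e receptor known from vessel patterning, stood at 57.7 and 65.9 CPM in GL261 and at 5.78, 8.42, 16 and 22.6 CPM in GL261-GSCs. It was the plexin that fell (log2 fold change -2.23, SE 0.49, edgeR adjusted p = 0.0154), with no overlap of the groups and a 3.91-fold range among the GL261-GSCs libraries. Plxnb2, a receptor of class 4 semaphorins, stood at 73.2 and 68.5 CPM in GL261 and at 100, 92, 144 and 139 CPM in GL261-GSCs. Every GL261-GSCs library was above GL261, and the rise was 1.68-fold (log2 fold change 0.74, SE 0.22, edgeR adjusted p = 0.0438). Plxnb2 lies on chromosome 15, where 492 genes with an average log2 CPM of at least 1 had a median log2 fold change of 0.31. The part of this in the rise of Plxnb2 was not tested. Plxna2, a receptor of Sema6a and, with neuropilins, of class 3 semaphorins, stood at 5.38 and 3.66 CPM in GL261 and at 9.05, 15.4, 9.14 and 9.72 CPM in GL261-GSCs. Replicate 2 was the high library within the group, and the rise was 2.4-fold (log2 fold change 1.26, SE 0.32, edgeR adjusted p = 0.0248).

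Lower in level, Plxnb1, the main Sema4d receptor, stood at 3.41 and 3.99 CPM in GL261 and at 8.51, 10.6, 7.48 and 8.46 CPM in GL261-GSCs, a rise of 2.37-fold (edgeR adjusted p = 0.00768). Plxnc1, the Sema7a receptor, stood at 0.696 and 0.398 CPM in GL261 and at 1.09, 2.53, 2.16 and 1.98 CPM in GL261-GSCs, a rise of 3.53-fold (edgeR adjusted p = 0.0228). The GL261-GSCs libraries of both genes lay above both GL261 libraries.

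The other measured plexins were not called. Plxna1, a coreceptor partner of neuropilins, stood at 8.22 and 10.1 CPM in GL261 and at 11.8, 12.2, 14.1 and 16 CPM in GL261-GSCs, with no overlap but an edgeR adjusted p of 0.075. Plxna3, of the same subfamily, stood at 10.5 and 10.7 CPM in GL261 and at 10.9, 8.47, 14.2 and 15.8 CPM in GL261-GSCs (log2 fold change 0.22, SE 0.27). Plxnb3, a Sema5a receptor, stood at 25.9 and 27.3 CPM in GL261 and at 21.5, 24.6, 43.4 and 51 CPM in GL261-GSCs (log2 fold change 0.40, SE 0.37). For Plxna3 and Plxnb3 the groups overlapped, since the first pair of GL261-GSCs replicates lay near GL261 and replicates 3 and 4 above it. Plxna4 had 1 UMI in each group and was not tested. Without either GL261 library the calls of all 5 plexins were lost, and with 1 library left out at a time their adjusted p reached 0.248 for Plxnb2, 0.201 for Plxna2, 0.181 for Plxnc1, 0.097 for Plxnd1 and 0.0916 for Plxnb1. Plxnb2 was also lost when GL261-GSCs replicate 3 or 4 was left out and with all barcodes summed (edgeR adjusted p = 0.068), and Plxnc1 when replicate 3 was left out (edgeR adjusted p = 0.0542). With GL261-GSCs replicates 3 and 4 both left out, the log2 fold change of Plxnd1 was -3.11.

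Among the secreted class 3 semaphorins, ligands that repel many axons through neuropilin and plexin, Sema3a and Sema3d rose and Sema3b and Sema3f fell. Sema3d (ENSMUSG00000040254.11, chr5:12383385-12588948) stood at 0.133 and 0 CPM in GL261 and at 131, 59.4, 170 and 203 CPM in GL261-GSCs. It was absent or nearly so from GL261, with 9 UMIs in all, and abundant in every GL261-GSCs library. Its log2 fold change was 10.94 (SE 1.02, edgeR adjusted p = 0.000567). Those 9 UMIs came from replicate 1: without it the gene was at least 2676-fold higher in GL261-GSCs, and without GL261 replicate 2 the ratio of UMIs was 998 (95% counting interval 526 to 2182). Sema3a (ENSMUSG00000028883.17, chr5:13125414-13602565), the founding repellent of the class and a Nrp1 ligand, stood at 0.193 and 0.315 CPM in GL261 and at 20.9, 22.5, 81.8 and 84.5 CPM in GL261-GSCs. It was low in both GL261 libraries and much higher in all of GL261-GSCs, with a 4.04-fold range within that group. Its rise was 206-fold (log2 fold change 7.69, SE 1.02, edgeR adjusted p = 0.00225). Both calls held in all 18 settings, with a log2 fold change of 6.43 for Sema3a without GL261-GSCs replicates 3 and 4 and 8.38 without replicates 1 and 2.

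Sema3b, a ligand studied as a tumour suppressor, stood at 37.7 and 44.7 CPM in GL261 and at 18.2, 5.95, 4.95 and 13.2 CPM in GL261-GSCs. All GL261-GSCs libraries lay below GL261, and the fall was 3.91-fold (log2 fold change -1.97, SE 0.50, edgeR adjusted p = 0.0266). Sema3f, the Nrp2 ligand, was low throughout, at 1.35 and 0.944 CPM in GL261 and at 0.227, 0.138, 0.0875 and 0.302 CPM in GL261-GSCs, and fell 6.27-fold (edgeR adjusted p = 0.00719). Sema3e, the Plxnd1 ligand, stayed under 1 CPM on average in both groups and was not called (69 and 206 UMIs), and Sema3c had 1 UMI in all. The call of Sema3b was lost without either GL261 library or without GL261-GSCs replicate 2 (adjusted p up to 0.148), and that of Sema3f without GL261 replicate 1 (0.0718). Sema3a, Sema3d, Sema3e and Sema3c lie on chromosome 5, where the 792 genes with an average log2 CPM of at least 1 had a median log2 fold change of 0.21, and GL261-GSCs replicate 1 had a median of 0.41 above the rest of its group; the part of this in the values above was not tested.

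Of 7 membrane semaphorins, all tested, Sema6a and Sema4d rose and Sema4c and Sema5a fell. Sema6a (ENSMUSG00000019647.16), a transmembrane ligand of Plxna2 and Plxna4 known from oligodendrocyte development and neuronal migration, stood at 5.21 and 1.34 CPM in GL261 and at 120, 56.2, 156 and 170 CPM in GL261-GSCs. Each GL261-GSCs library was at least an order of magnitude above GL261, and the rise was 38.2-fold (log2 fold change 5.25, SE 0.78, edgeR adjusted p = 0.00351). The GL261 libraries themselves differed, and the log2 fold change was 6.54 without GL261 replicate 1 and 4.58 without replicate 2. Its chromosome, 18, had a median log2 fold change of -0.59 over its 298 genes with an average log2 CPM of at least 1. There GL261-GSCs replicates 1 to 4 had medians of 0.01, -0.31, 0.23 and 0.08 against the rest of their group. The part of these shifts in the levels of Sema6a and of Dcc, also on chromosome 18, was not tested. Sema4d, a Plxnb1 ligand also known from T cells, stood at 12.4 and 13.2 CPM in GL261 and at 27.8, 21.6, 16.8 and 23.7 CPM in GL261-GSCs. No library overlapped, and the rise was 1.76-fold (log2 fold change 0.81, SE 0.22, edgeR adjusted p = 0.0322). Sema4d lies on chromosome 13, where 434 genes at that average level had a median log2 fold change of 0.37. On it GL261-GSCs replicates 1 to 4 had medians of 0.22, 0.03, -0.15 and -0.09 against the rest of their group. The part of these shifts in the level of Sema4d was not tested.

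Sema5a, which carries thrombospondin repeats and binds Plxna and Plxnb3 receptors, stood at 42.2 and 55.2 CPM in GL261 and at 5.84, 14.2, 17.2 and 25.4 CPM in GL261-GSCs. GL261-GSCs were lower throughout but spread over a 4.34-fold range, and the fall was 3.12-fold (log2 fold change -1.64, SE 0.48, edgeR adjusted p = 0.0413). Sema4c, a Plxnb2 ligand, stood at 21.6 and 20 CPM in GL261 and at 13.4, 14.3, 9.78 and 11.2 CPM in GL261-GSCs. This fall was small and even across the libraries, at 1.71-fold (log2 fold change -0.78, SE 0.19, edgeR adjusted p = 0.0228). Sema4b stood at 10.4 CPM in each GL261 library and at 7.81, 7.23, 11.2 and 13.3 CPM in GL261-GSCs, straddling GL261 (log2 fold change -0.07, SE 0.28). Sema7a, a GPI-anchored ligand, averaged 5.27 CPM in GL261 and 9.98 CPM in GL261-GSCs with overlapping libraries (edgeR adjusted p = 0.247). Sema6d was barely detected, with 3 and 25 UMIs (ratio 4.18, 95% counting interval 1.28 to 21.6; edgeR adjusted p = 0.362), and the ratio was 2.44 without GL261-GSCs replicate 3 (0.628 to 13.8). Without either GL261 library the calls of Sema4c, Sema4d and Sema5a were lost, with adjusted p up to 0.165, 0.202 and 0.22. Sema4d and Sema5a were also lost without GL261-GSCs replicate 2 and Sema5a without replicate 3, and scaling by library size alone, which moved the median of all genes from 0.04 to 0.18, took Sema4c and Sema5a out of the calls. Sema5a was also lost with the largest 5% of cells left out (edgeR adjusted p = 0.054).

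Slit ligands were all but absent, while their receptor Robo1 rose. Robo1 (ENSMUSG00000022883.11, chr16:72308306-73046095), the chief Slit receptor, stood at 0.252 and 0.364 CPM in GL261 and at 0.986, 6.2, 12.9 and 16.1 CPM in GL261-GSCs. Its GL261-GSCs libraries all lay above GL261 but ran over a 16.4-fold range, and the rise was 29.2-fold (log2 fold change 4.87, SE 1.19, edgeR adjusted p = 0.023). Robo2, another Slit receptor, had 1 UMI in GL261 and 412 in GL261-GSCs, nearly all in replicates 3 and 4 at 2.95 and 4.78 CPM, and none in replicate 2. The groups overlapped, and Robo2 was not called (ratio 207, 95% counting interval 36.9 to 8187; edgeR adjusted p = 0.12), and the ratio was 109 without GL261 replicate 2, 129 without GL261-GSCs replicate 3 and at least 32.5 without GL261 replicate 1. Slit2 had no UMI in GL261 and 68 in GL261-GSCs, at least 11.4-fold more, with an edgeR adjusted p of 0.0653, and the bound was 4.88 without GL261-GSCs replicate 3, 5.37 without GL261 replicate 1 and 6.01 without GL261 replicate 2. Slit1 had 1 and 17 UMIs and Slit3 had 0 and 1. In limma-voom, or when either GL261 library was left out, Robo1 was no longer called (adjusted p up to 0.156), and its log2 fold change was 3.55 without GL261-GSCs replicates 3 and 4.

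Netrin-1 and its attractive receptor Dcc rose in GL261-GSCs. Ntn1 (ENSMUSG00000020902.12, chr11:68209364-68400823), the secreted attractant, stood at 0.0593 and 0.0994 CPM in GL261 and at 8.51, 14.2, 19.1 and 20.3 CPM in GL261-GSCs. GL261 had 10 UMIs in all against 3861, and the rise was 193-fold (log2 fold change 7.59, SE 0.59, edgeR adjusted p = 0.000301). Dcc (ENSMUSG00000060534.15), the receptor for netrin attraction, had no UMI in either GL261 library and stood at 6.57, 10.8, 35.7 and 44 CPM in GL261-GSCs. With 5671 UMIs against 0, it was at least 949-fold higher in GL261-GSCs, counting 3 UMIs over the group as the floor (edgeR adjusted p = 0.00548). The calls of Ntn1 and Dcc held in all 18 settings, and the bound for Dcc lay between 448 and 1182 with each library left out in turn. Unc5c, a receptor for netrin repulsion, stood at 2.28 and 2.3 CPM in GL261 and at 2, 17.3, 40.3 and 43.4 CPM in GL261-GSCs. GL261-GSCs replicate 1 was at the level of GL261 and the other replicates well above it, so that the groups overlapped and the gene was not called (log2 fold change 3.49, SE 1.16, edgeR adjusted p = 0.0617). Without GL261-GSCs replicate 1 Unc5c was called, with an adjusted p of 0.00193. With all libraries it was also called by DESeq2 and by edgeR without the filter on low counts. On chromosome 3, which holds Unc5c, that replicate had a median of -0.40 against the rest of its group over the 586 genes whose average log2 CPM was 1 or more, and the part of this in the level of Unc5c was not tested. Unc5b had 1 UMI in each group.

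Eph receptors moved in opposite directions: Epha2 fell, and Epha3 and Ephb2 rose. Epha2 (ENSMUSG00000006445.3, chr4:141301240-141329384), a receptor often raised in solid tumours, stood at 16.4 and 17.2 CPM in GL261 and at 0, 0.0138, 0 and 0.0549 CPM in GL261-GSCs. GL261-GSCs held 3 UMIs against 2149, a level 1427-fold lower (95% counting interval 488 to 6926; edgeR adjusted p = 0.000169), and the call held in all 18 settings. Without GL261-GSCs replicate 4, which held 2 of the 3 UMIs, the ratio was 3670. Epha3 (ENSMUSG00000052504.7, chr16:63543534-63864175), which binds ephrin-A ligands and is studied as an antigen on glioblastoma stem-like cells, had no UMI in GL261 and stood at 0.243, 7.02, 22.8 and 34.8 CPM in GL261-GSCs. It was at least 604-fold higher in GL261-GSCs (edgeR adjusted p = 0.0384), but replicate 1 had only 16 UMIs and the highest library was 143-fold above the lowest. The call of Epha3 was lost in limma-voom and when any library but GL261-GSCs replicate 1 was left out (adjusted p up to 0.156), and with each library left out in turn its bound ran from 285 without GL261 replicate 1 to 812 without GL261-GSCs replicate 1. Ephb2, a synaptic and axonal ephrin-B receptor, had 3 UMIs in GL261, all in replicate 1, and stood at 0.971, 5.85, 1.26 and 2.03 CPM in GL261-GSCs. All 4 libraries were above GL261, with a ratio of 111 (95% counting interval 37.8 to 539; edgeR adjusted p = 0.0108), and the call was lost without either GL261 library (adjusted p up to 0.0831). The ratio was 55.9 without GL261-GSCs replicate 2 and 58.6 without GL261 replicate 2, and without GL261 replicate 1 it was at least 52.4.

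The remaining Eph receptors were not called with all libraries. Ephb4, the ephrin-B2 receptor of veins, stood at 22.1 and 21.5 CPM in GL261 and at 17.3, 14.2, 5.04 and 3.98 CPM in GL261-GSCs. Every GL261-GSCs library was below GL261, yet the group spread over a 4.36-fold range (log2 fold change -1.10, SE 0.58, edgeR adjusted p = 0.193). Without GL261-GSCs replicates 3 and 4 the log2 fold change was -0.46 (edgeR adjusted p = 0.0493), and without replicates 1 and 2 it was -2.24 (adjusted p = 2.49e-05), so that Ephb4 was called in both of these smaller fits. Ephb4 lies on chromosome 5, where GL261-GSCs replicates 1 to 4 had medians of 0.41, 0.03, -0.17 and -0.24 against the rest of their group. The part of this in the level of Ephb4 was not tested. Ephb3 stood at 10.6 and 11.7 CPM in GL261 and at 10, 10.9, 8.15 and 10.5 CPM in GL261-GSCs (log2 fold change -0.17, SE 0.18). Epha4, Epha5, Epha7, Ephb1 and Ephb6 were not tested: Ephb1 and Ephb6 had no UMI in any library, and Epha5 had the most, 1 and 20.

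Ephrins, the membrane-bound Eph ligands, lay under 10 CPM on average in both groups. Efna1, the usual Epha2 ligand, stood at 1.98 and 2.55 CPM in GL261 and at 4.72, 8.47, 8.4 and 9.31 CPM in GL261-GSCs, a rise of 3.4-fold (edgeR adjusted p = 0.00959). Efnb1, a transmembrane ligand of EphB receptors, stood at 2.38 and 2.1 CPM in GL261 and at 5.66, 6, 11.2 and 13.1 CPM in GL261-GSCs, a rise of 3.99-fold (edgeR adjusted p = 0.0149). Efna5, a GPI-anchored repellent of EphA-bearing axons, stood at 4.3 and 4.19 CPM in GL261 and at 1.76, 1.21, 2.18 and 1.79 CPM in GL261-GSCs, a fall of 2.45-fold (edgeR adjusted p = 0.0132). The groups did not overlap for any of these. Efna1, Efna3 and Efna4 lie on chromosome 3, where GL261-GSCs replicate 1 had a median of -0.40 against the rest of its group. Only Efna1 among them was lowest in replicate 1, and the part of this shift in their levels was not tested. Efna4 averaged 4.72 CPM in GL261 and 2.06 CPM in GL261-GSCs and Efna2 1.12 and 1.62 CPM, with neither called (edgeR adjusted p 0.0956 and 0.408), and Efna3 and Efnb3 stayed under 1 CPM and were not called either. Efnb2 had 21 and 17 UMIs and was not tested. Without either GL261 library all 3 ephrin calls were lost (adjusted p up to 0.0966, 0.125 and 0.0967 for Efna1, Efnb1 and Efna5), and the log2 fold change of Efnb1 was 1.38 without GL261-GSCs replicates 3 and 4.

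To place these levels beside the DNA in front of the genes, promoters were taken from RefSeq (GRCm38.p6) for the 42 members with an entry (53 promoters, since a gene can have several starts), as the 250 bases before the start. 4 are shown, for the EphA receptors that moved in opposite directions and for the class 3 semaphorin and the plexin with the largest change in their families; the letters are 5' to 3' on the strand of the gene. Capitals mark CATTCC, the core of the motif bound by TEAD factors, or its reverse complement.
Epha2, chr4:141300971-141301220, plus strand: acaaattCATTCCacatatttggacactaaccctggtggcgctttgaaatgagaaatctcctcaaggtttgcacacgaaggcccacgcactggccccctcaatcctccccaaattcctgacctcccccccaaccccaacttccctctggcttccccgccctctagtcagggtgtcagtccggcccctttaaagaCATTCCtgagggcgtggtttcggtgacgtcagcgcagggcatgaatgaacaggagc
Epha3, chr16:63864176-63864425, minus strand: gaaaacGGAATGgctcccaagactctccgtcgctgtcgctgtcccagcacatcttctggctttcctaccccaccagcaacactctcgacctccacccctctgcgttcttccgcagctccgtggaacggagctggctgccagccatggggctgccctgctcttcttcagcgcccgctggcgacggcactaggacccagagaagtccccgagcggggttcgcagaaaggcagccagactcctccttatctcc
Sema3d, chr5:12382916-12383165, plus strand: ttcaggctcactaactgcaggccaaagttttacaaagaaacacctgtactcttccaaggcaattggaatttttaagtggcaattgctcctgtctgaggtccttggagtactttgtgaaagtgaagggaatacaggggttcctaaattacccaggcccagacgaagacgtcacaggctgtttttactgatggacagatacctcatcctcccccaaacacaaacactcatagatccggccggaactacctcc
Plxnd1, chr6:115995006-115995255, minus strand: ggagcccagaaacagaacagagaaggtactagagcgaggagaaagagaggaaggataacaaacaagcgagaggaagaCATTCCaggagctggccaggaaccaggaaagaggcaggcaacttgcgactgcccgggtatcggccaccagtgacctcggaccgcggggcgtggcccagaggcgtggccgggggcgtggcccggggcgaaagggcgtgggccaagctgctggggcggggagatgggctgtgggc
Epha2 held 2 matches, Plxnd1 and Epha3 1 each and Sema3d none, so a match stood before genes that rose and genes that fell. Searched on both strands, CATTCC was in 5 of 53 member promoters (9.43%) and in 12.6% of all 32851 promoters of this length. The AP-1 motif TGANTCA was in 2 (3.77%, against 6.75% of all), and the SOX motif ACAATG and the E-box CAGCTG were in 5 each (9.43%, against 10.7% and 13%). Member promoters had a median of 16 CpG and 64.8% G and C, against 6 CpG and 52.4% over all promoters. A match is a description of the letters only.

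Within GL261-GSCs the levels were far from uniform. GL261-GSCs replicate 1 was the lowest of the 4 libraries for 20 of the 40 tested genes (50%, against 30.4% of all genes tested), and replicate 4 was the highest for 23 (57.5%, against 33.5%). In these counts a tie went to the lower replicate number, as for Epha2, with 0 UMIs in replicates 1 and 3. Epha3 spanned 143-fold between the highest and lowest library, Unc5c 21.7-fold, Robo1 16.4-fold and Dcc 6.70-fold. Plxna1 and Ephb3, by contrast, spanned 1.36-fold and 1.34-fold. These 4 genes of wide span are long, with 1097 kb for Dcc, 738 kb for Robo1, 370 kb for Unc5c and 321 kb for Epha3. Under 50 kb the widest spans were those of Ephb4 (28.6 kb, 4.36-fold, highest in replicate 1) and Sema7a (22.8 kb, 4.02-fold, highest in replicate 4). Over 200 kb, Sema3e, Sema5a, Sema3a (477 kb) and Sema3d spanned 5.38-fold, 4.34-fold, 4.04-fold and 3.42-fold, and Efna5 (277 kb) 1.79-fold. Whether length and span went together was not tested. Over genes with an average log2 CPM of at least 1, the median log2 fold change between the groups was -0.11 for the 5564 up to 20 kb and 0.64 for the 91 genes over 500 kb, and for the latter GL261-GSCs replicate 1 had a median of -0.37 and replicate 4 of 0.40 against the rest of the group. For the genes up to 20 kb these 2 medians were 0.10 and -0.15, and for those from 20 to 50 kb 0.04 and -0.05.

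Other measures moved with the same libraries. Malat1, an RNA kept in the nucleus, stood at 4665 and 4722 CPM in GL261 and at 2855, 3331, 4541 and 7445 CPM in GL261-GSCs replicates 1 to 4. Neat1, another nuclear RNA, did not follow this order, at 348 and 306 CPM in GL261 and at 227, 230, 213 and 366 CPM in GL261-GSCs. Median UMIs per cell were lowest in replicate 4. Summed oligodendrocyte markers were 29.8 and 30.9 CPM in GL261 and 93, 123, 168 and 186 CPM in GL261-GSCs, with Mag and Mobp at 1.51 CPM or below throughout. Summed neuron markers were at most 0.281 CPM in GL261 and 1.27, 12.8, 52.3 and 78.8 CPM in GL261-GSCs, nearly all of it Syt1, with Rbfox3 at 0 and Snap25 and Gad1 under 0.1 CPM. Summed pericyte and fibroblast markers went the other way, at 252 and 287 CPM in GL261 and 16, 11.1, 26.9 and 17.4 CPM in GL261-GSCs, nearly all of it Col1a1. Csf1r, a microglia and macrophage marker, stood at 12.9 and 12.6 CPM in GL261 and at 0.243 CPM or below in GL261-GSCs, while Cd68, of the same list, stood at 7.87 and 7.04 CPM in GL261 and at 13.8, 8.92, 18.9 and 23 CPM in GL261-GSCs, and the other 6 of the 8 markers stayed under 1 CPM throughout. The part of these in the falls of Nrp1 and Epha2 was not tested. The part of gene length, nuclear RNA, depth and these markers in the changes of Dcc, Robo1, Epha3, Unc5c and Sema3a was not tested.

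**Figure D3:**
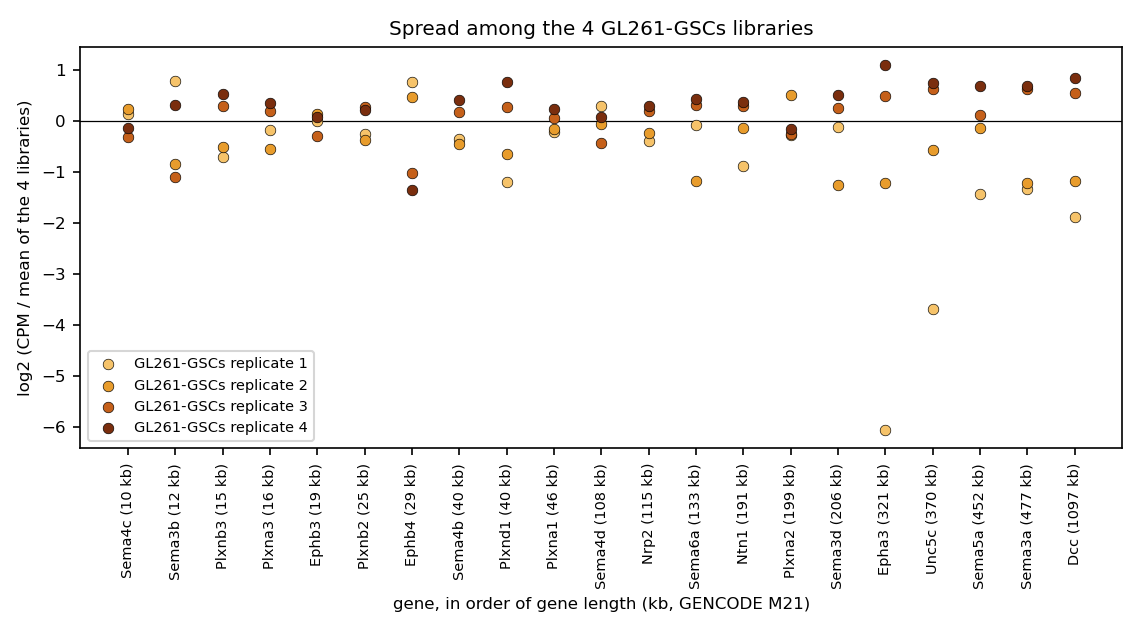
Level in each GL261-GSCs library relative to the mean of the 4 libraries, as log2 of the CPM ratio, for the axon guidance genes of at least 10 CPM in a group except Nrp1 and Epha2, ordered by gene length in kb. Points of Epha3 and Unc5c in replicate 1 lie far below those of the other libraries, and the 477 kb Sema3a and 1097 kb Dcc are lowest in replicates 1 and 2.

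To compare cells at equal depth, 2000 UMIs were drawn from each cell, and no cell was too shallow for this. Sema3d was seen in 24.9%, 11.6%, 30% and 38.1% of cells in GL261-GSCs replicates 1 to 4, and in 0.0208% and 0% of GL261 cells, where a count of 0 allows up to 0.06% of cells to show a UMI at this depth, which sets no limit on cells expressing the gene. Sema6a was seen in 21.8%, 11.9%, 28.9% and 33.4% of GL261-GSCs cells and in 1.44% and 0.24% of GL261 cells (0.732% and 0.165% from free RNA). Nrp1 was seen in 17.6% and 19.1% of GL261 cells and in at most 0.0687% of the cells of a GL261-GSCs library. Dcc was seen in 1.76%, 2.78%, 9.07% and 13.1% of GL261-GSCs cells and in none of GL261. For 17 of the 23 genes of at least 10 CPM the shares of the groups did not overlap, which held for 56.3% of all genes at that level. With 6 libraries the exact permutation test (2-sided) cannot give a p below 0.133, so none of these differences in shares could be called.

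Free RNA limits how these shares can be read. A droplet with 2000 UMIs of the free RNA found in each library would show Sema3d in 12.6%, 7.68%, 24.5% and 32.7% of cases in GL261-GSCs replicates 1 to 4, each below the share of cells. For Sema6a it would give 15.6%, 8.56%, 25.4% and 26.1% there, each likewise below the share of cells. For Dcc the same estimate was 0.581%, 1.08%, 4.38% and 5.8%, and for Nrp1 in GL261 10.7% and 7.79%, also below the shares of cells. Sema3a in GL261-GSCs replicate 3 was seen in 13.8% of cells against 14.9% for free RNA. The estimate takes all 2000 UMIs of a droplet as free RNA, and an uneven spread of UMIs over cells also lowers a share. How much free RNA the droplet of a cell held was not measured. The estimate therefore cannot tell what part of a share is background. Without thinning, Dcc UMIs lay in 369, 663, 2061 and 1198 cells of GL261-GSCs replicates 1 to 4. Nrp2 in GL261 replicate 2 was seen in about as many cells as an even spread of its UMIs gives (24.3%, against 25.1%). Sema3a was less even, with 15.4% of cells against 19.9% in GL261-GSCs replicate 4 and up to 45 UMIs in 1 cell.

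**Figure D4:**
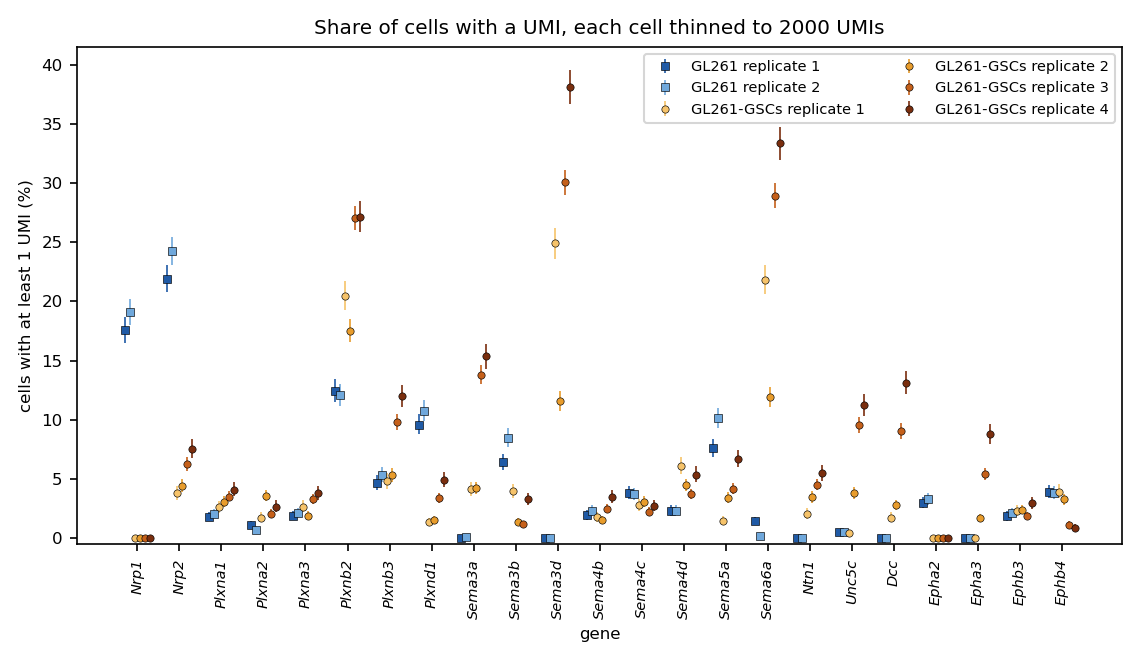
Share of cells with at least 1 UMI for the axon guidance genes of at least 10 CPM in a group, with each cell thinned to 2000 UMIs; squares are GL261 and circles GL261-GSCs libraries, and bars are exact binomial 95% intervals, which cover counting error only. Nrp1, at 17.6% and 19.1% of GL261 cells, is at the floor in GL261-GSCs, and Sema3d shows the reverse. Sema6a is also higher in GL261-GSCs but was seen in cells of both GL261 libraries.

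Genes of ligand and receptor classes known to bind each other were seen together in the same cells about as often as other axon guidance genes. These are called binding pairs here, but they were crossed by class, so not each of them is an established pair. Of 95 binding pairs listed, 29 could be measured in at least 1 library, both genes being seen in at least 2% of the cells of a library. The median of observed over expected cells was 1.14 and 1.17 for binding pairs in GL261, against 1.23 and 1.13 for all other pairs of members. In GL261-GSCs it was 1.35, 1.30, 1.35 and 1.22 for binding pairs, against 1.28, 1.26, 1.30 and 1.22 for the others. Ntn1 and Dcc were seen together in 7, 48 and 52 cells of GL261-GSCs replicates 2 to 4, 1.24, 1.60 and 1.59 times the number expected. Ntn1 and Unc5c gave 1.54, 1.78 and 1.54 in those libraries, and Sema3d with Nrp2 1.19, 1.49, 1.37 and 1.22 in GL261-GSCs replicates 1 to 4. Some binding pairs were below 1 in a library, as Nrp2 with Plxna1 in GL261-GSCs replicate 2 (0.744, 6 cells) and Sema4b with Plxnb1 (0.601, 2 cells) and Efnb1 with Ephb3 (0.283, 1 cell) in replicate 4; these were chosen after their values were seen, as were those above 1. The pairs of a library share its cells, and these ratios carry no test.

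Other genes of the pathway, from a list of 82 further ligands, coreceptors and signalling genes of which 81 were found, moved in both directions. Of 67 tested, 35 were called (52.2%, against 29.9% of all genes), 16 higher and 19 lower, with a median log2 fold change of 0.06. The largest rises among the called genes with an average log2 CPM of at least 3 were in the signalling protein Vav3 (7.38), the actin regulator Enah (4.70), the Rac and Cdc42 effector kinase Pak1 (3.05) and Met, the hepatocyte growth factor receptor that pairs with class B plexins (2.70), as log2 fold changes. The largest falls were in the adhesion molecule L1cam, a Nrp1 partner (-4.84), the Slit-binding proteoglycan Gpc1 (-2.07), the Plxnb1 partner Erbb2 (-1.99) and the neogenin ligand Rgmb (-1.54). L1cam stood at 220 and 251 CPM in GL261 and at 8.8, 4.57, 7.45 and 12.1 CPM in GL261-GSCs, so that it fell together with Nrp1. Pak1 stood at 25.3 and 20.4 CPM in GL261 and at 181, 143, 238 and 196 CPM in GL261-GSCs. In the edgeR test the adjusted p of these 8 genes ran from 0.000101 for Vav3 to 0.0489 for Erbb2. Without GL261 replicate 1 or 2, 18 and 15 of the listed genes were called, and Enah, Rgmb and Erbb2 were no longer among them in either case. Erbb2 was also lost with scaling by library size, with the largest 5% of cells left out, with free RNA subtracted, and without GL261-GSCs replicate 2 or 3.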

How the data were processed

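The authors deposited raw UMI counts per gene and barcode without barcode filtering, made with Cell Ranger 4, per the file headers, on mm10, per the submitters' processing notes. The sources used here do not give the annotation release. Gene positions come from GENCODE M21 (GRCm38), matched by identifier without version for 54409 (99.9%) of 54446 identifiers. Groups and replicate numbers came from the sample titles.

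A barcode was called a cell with at least 500 genes, under 10% mitochondrial UMIs, and at least 10% of the UMIs at the 99th percentile of its library's 3000 largest barcodes (2060 to 3275 UMIs). Doublets were not removed. UMIs were summed per library and tested with edgeR 4.0.16 in R 4.3.3 (glmQLFTest, TMM, filterByExpr, Benjamini-Hochberg over all genes, 2-sided, no block, common dispersion 0.0969). CPM used TMM-scaled library sizes. SEs are the size of the log2 fold change over the root of the F statistic. Where a group had 0 UMIs, the fold is a bound that assumes 3 UMIs over that group; where it had 1 to 3, a UMI ratio with an exact 95% interval is given; intervals cover counting error only. Free RNA was taken from barcodes with 100 to under 1000 UMIs.

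Tested on simulated data of 18439 genes, with 200 changed by 2 on the log2 scale, the edgeR test recovered 179 with 4 false calls, limma-voom (limma 3.58.1) 171 with 3, and DESeq2 1.42.0 187 with 17. The simulation gave every gene the common dispersion in both groups and drew the changed genes from well-covered ones. Far fewer genes changed than were called in the data. It does not show how the tests behave where GL261-GSCs libraries spread more widely than GL261.

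Every member is accounted for. Values per library are given for members with a mean of at least 10 CPM in a group, and for called members without overlap at 1 CPM or more. From the wider list the 4 largest rises and falls among called genes with an average log2 CPM of at least 3 are named. The members and lists were chosen with earlier results of these data known. The alternatives were DESeq2 with its size factors, scaling by library size, limma-voom, no filter, a replicate block, a test against a 2-fold change, looser cell calling, all barcodes, the largest 5% of cells left out, free RNA subtracted at 10%, and libraries left out.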

Additional observations from a re-analysis of the deposited data

Results flagged for a closer look

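Plxna2 stood at 9.05, 15.4, 9.14 and 9.72 CPM in GL261-GSCs replicates 1 to 4. Replicate 2 lay far from the rest: its gap to the nearest library was 0.895 of the range of the group, above the 95% critical value of Dixon's test for 4 samples. Among the 40 tested members this was the only such case in GL261-GSCs, and chance gives about 1 in 20. The GL261-GSCs libraries without replicate 2 still lay above the 5.38 and 3.66 CPM of GL261.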

How the results depend on the processing

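All 24 called members kept their direction in all 18 alternative settings. 8 kept the call in every one (Nrp1, Nrp2, Sema3a, Sema3d, Sema6a, Ntn1, Dcc and Epha2), and 18 kept it in every setting with all libraries other than the test against a 2-fold change. That stricter test called 10 members (6 higher, 4 lower), 14 genes of the wider list (7 higher, 7 lower) and 1988 of all genes (1094 higher, 894 lower). With each library left out in turn, called members ran from 8 to 26 (higher 5 to 17, lower 3 to 9), wider list genes from 15 to 36 (higher 7 to 17, lower 8 to 19), all genes from 1817 to 6193 (higher 843 to 3372, lower 974 to 2821), and members of non-overlapping cell shares from 17 to 19 of 23 (58.9% to 65% of all genes at that level). The lowest counts came without a GL261 library, when the lone one left is assumed to vary like the other group. Without GL261-GSCs replicates 1 and 2 together, 9881 genes were called (5171 higher, 4710 lower), with 35 members, 23 of them higher, and 27 wider list genes higher. Without replicates 3 and 4 together, 6985 genes were called (3664 higher, 3321 lower), with 24 members, 13 of them higher. The cause of these differences in counts was not tested. DESeq2 called 29 members and limma-voom 22. Members not called in the reported fit were added by DESeq2 (Plxna1, Robo2, Slit2, Unc5c and Efna4), by library size scaling (Plxna1) and without the filter (Slit2 and Unc5c). The replicate number pairs only the first 2 replicates of each group, whose deviations correlated at -0.03 and 0.04. With 2 GL261 libraries their deviations mirror each other, so the correlations cannot decide whether the samples are paired. With the replicate block 23 members (all but Plxnc1) and 6512 genes were called. In that fit GL261-GSCs replicates 3 and 4 had no GL261 partner, so the group difference rests on replicates 1 and 2. It was counted above among the settings with all libraries. Depth limits the 16 members under 1 CPM in both groups, of which 5 could be tested.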

Other observations

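The few Sema3d transcripts of GL261 sat in 3 cells. In GL261 replicate 1, 3 of 4808 called cells held Sema3d, with 1, 2 and 6 UMIs, and GL261 replicate 2 had none in 5002. This is 0.0624% of the cells of replicate 1. Were all UMIs of each cell free RNA, 0.0862% of cells would show the gene. The part of free RNA in these cells was not measured, so this estimate does not decide where the Sema3d UMIs came from. The 3 cells held 3, 2 and 3 UMIs of Nrp1, which was found in 66.5% of all cells of the library (53.9% from free RNA), none of Sema3a, Sema6a, Dcc or Ntn1, and 0, 0 and 1 of Olig2. The cell with 6 Sema3d UMIs also held 28 UMIs of Nrp2, the highest count of that gene in the library, where the next cell had 18 and the median cell 1. It was 1 cell, chosen after its values were seen, and no test was made.

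Sema6a differed between the GL261 libraries (5.21 and 1.34 CPM). Sema6a was found in 267 cells of replicate 1, 223 of them with 1 UMI and the highest with 13, and in 77 cells of replicate 2, the highest with 4. These are 5.55% and 1.54% of cells, where free RNA alone would give 5.26% and 1.08%. At 2000 UMIs per cell the shares were 1.44% and 0.24%, against 0.732% and 0.165% from free RNA. The distance from this estimate, which takes all UMIs of a cell as free RNA, depended on the depth compared. Olig2 was found in 60 cells of replicate 1 and 1 cell of replicate 2, and 4 cells of replicate 1 held both genes.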
